A study of Mus musculus with 2 samples.

Results

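DNaseI hypersensitive sites (DHS) that lie in intergenic DNA, more than 50 kb from any protein-coding transcription start site (TSS), were taken from the peak list of 1 DNaseI-seq library of mouse splenic B cells. A DHS was a member if it lay on chromosomes 1 to 19, overlapped no window from 5 kb upstream to 2 kb downstream of the TSS of any GENCODE M1 transcript and no gene body, and had its centre more than 50 kb from the nearest protein-coding TSS. The rule used positions alone. It gave 3691 members of 46610 DHS on these chromosomes, or 7.92% (95% Wilson interval 7.68 to 8.17%), and the whole list held 47542 DHS. Of the others on chromosomes 1 to 19, 8371 were intergenic within 50 kb of a protein-coding TSS, 12592 lay in gene bodies and 21956 touched a promoter window.

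The B cells came from the spleens of C57/Bl6 mice that were Trp53+/+, 8 weeks old and mock-treated, and were purified with B220 MicroBeads. Nuclei were digested with DNase I, and the digest with the best signal over background by qPCR was sequenced. Whether animals were pooled for this library was not stated. There was 1 DNaseI library and no replicate, and the input library was not analysed here. Every interval below therefore covers counting error only, and no p-value is given. Density intervals count each DHS as independent, though many lie close together, so they may be too narrow.

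DNase I cuts DNA where nucleosomes have been displaced, mostly at promoters, enhancers and sites of the architectural protein CTCF. Sites far from genes are known mainly as enhancers, which act on promoters through looping, and as CTCF sites, which anchor loops. In B cells distal enhancers are opened by lineage factors such as PU.1, an Ets family protein, together with EBF1, E2A, Pax5, Runx and Oct proteins.

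The library carried open promoters of the labelled cell type. A DHS covered a TSS of 10 of 10 B cell marker genes, among them Cd79a and Ms4a1, and of 0 of 8 T cell markers. It covered 1 of 8 myeloid markers (Cd14, with a score of 51.05) and 1 of 6 erythroid markers. The score is the unitless strength that the authors' peak caller gave each DHS. It reached 619.44 over the classes of chromosomes 1 to 19, and since read totals were not in the list the depth behind each score is unknown.

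The sequences at the centre of the strongest members show what such a site looks like. The first 3 lines give 300 bases around the centre of 3 of the 4 strongest members, and capitals mark any of 15 short motif words searched on both strands. The remaining one of the 4 held none of the words. The shorter lines give stretches of 100 bases around a single word, shown in capitals, in the strongest member holding it other than the member near Gm9887, whose words are marked in its own line. For CTCF the member is the strongest with an exact match to the word, which elsewhere may have 1 mismatch. All positions are mm9.
Upstream of Dcn (AP-1 word), chr10:96775890-96776189, plus strand: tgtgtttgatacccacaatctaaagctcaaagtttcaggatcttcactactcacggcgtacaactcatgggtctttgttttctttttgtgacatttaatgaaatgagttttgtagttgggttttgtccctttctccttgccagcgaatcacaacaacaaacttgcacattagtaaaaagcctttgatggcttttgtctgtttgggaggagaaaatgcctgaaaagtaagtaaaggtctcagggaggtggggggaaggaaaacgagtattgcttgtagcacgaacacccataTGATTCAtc
Upstream of Btg1 (GATA, AP-1 and STAT words), chr10:95794960-95795259, plus strand: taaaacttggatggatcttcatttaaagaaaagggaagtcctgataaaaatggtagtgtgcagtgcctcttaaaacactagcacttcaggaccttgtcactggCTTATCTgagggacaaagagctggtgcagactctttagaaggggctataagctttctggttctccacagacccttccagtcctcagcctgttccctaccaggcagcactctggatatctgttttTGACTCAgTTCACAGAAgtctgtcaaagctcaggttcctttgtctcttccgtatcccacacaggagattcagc
Upstream of Gm9887 (Ets-IRF composite, PU.1 and Runx words), chr12:70548277-70548576, plus strand: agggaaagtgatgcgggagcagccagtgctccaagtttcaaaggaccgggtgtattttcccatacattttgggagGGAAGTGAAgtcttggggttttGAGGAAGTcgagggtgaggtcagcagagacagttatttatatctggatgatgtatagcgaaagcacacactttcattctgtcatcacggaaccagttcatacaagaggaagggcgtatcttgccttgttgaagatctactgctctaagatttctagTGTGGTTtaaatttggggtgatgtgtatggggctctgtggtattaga
CTCF word in the member nearest Iglc2, chr16:19146838-19146937, plus strand: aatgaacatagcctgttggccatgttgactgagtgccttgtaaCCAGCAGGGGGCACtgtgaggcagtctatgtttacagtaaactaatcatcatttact
Ets-IRF composite word in the member nearest 3930402G23Rik, chr8:10830996-10831095, plus strand: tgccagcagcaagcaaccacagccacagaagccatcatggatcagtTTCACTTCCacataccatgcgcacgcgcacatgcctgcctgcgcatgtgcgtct
Octamer in the member nearest B230307C23Rik, chr16:98303298-98303397, plus strand: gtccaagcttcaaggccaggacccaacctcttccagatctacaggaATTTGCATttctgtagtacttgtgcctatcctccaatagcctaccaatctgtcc
Runx word in the member nearest Mrpl39, chr16:84584240-84584339, plus strand: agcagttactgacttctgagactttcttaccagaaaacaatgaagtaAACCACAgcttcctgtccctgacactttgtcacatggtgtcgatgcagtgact

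The member upstream of Dcn, the decorin gene, had the highest score of the class, 441.60, which was above 99.9% of DHS on chromosomes 1 to 19. It spanned chr10:96775201-96776879 and lay 166 kb from the Dcn TSS, in the stretch between Btg1 and Dcn. The next was a DHS of 4552 bp, 78.1 kb downstream of Fam43a, with a score of 352.69. Members with scores of 316.68 and 282.13 lay 285 kb and 243 kb upstream of Btg1, an antiproliferative gene that is highly expressed in resting lymphocytes. A member with a score of 309.02 lay 74.98 kb upstream of Gm9887, in the stretch between Arf6 and Mettl21d. The other members of the 10 strongest lay nearest Cpsf6, 3930402G23Rik, Bmp2k, Gm6772 and Mrpl39, with scores from 261.18 to 285.88. They lay from 59.0 kb to 151 kb from these genes. Of the 31-base words in these 10 members, a median of 2.61% and at most 11.9% recurred elsewhere in the assembly.

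Members had a lower median score and width than promoter DHS, and a median score close to that of DHS in gene bodies. The median score of members was 23.18 (95% interval of the median 22.56 to 23.82), against 26.61 for intergenic DHS within 50 kb (25.96 to 27.16), 23.51 for gene bodies (23.18 to 23.88) and 53.99 for promoters (52.87 to 55.12). At or above the median score of the whole list were 34.4% of members and 65.6% of promoter DHS, a difference of -31.3 percentage points (-32.9 to -29.6). The difference from gene-body DHS was 0.502 points (-1.23 to 2.25), an interval that spans 0. Members had a median width of 629 bp (602 to 654), against 637 bp for nearer intergenic DHS, 579 bp (568 to 590) for gene bodies and 948 bp (937 to 961) for promoters. The widest member, of 5873 bp, lay 61.1 kb upstream of St3gal1, a sialyltransferase gene, with a score of 220.35. The next widest lay near Fam43a (4552 bp), Irf2 (4502 bp), Gcap14 (4345 bp) and Chd2 (3765 bp). Across the 3691 members the score rose with width (Spearman's rho 0.66) and hardly with distance (-0.05), and both measures come from the same reads.

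**Figure D1:**
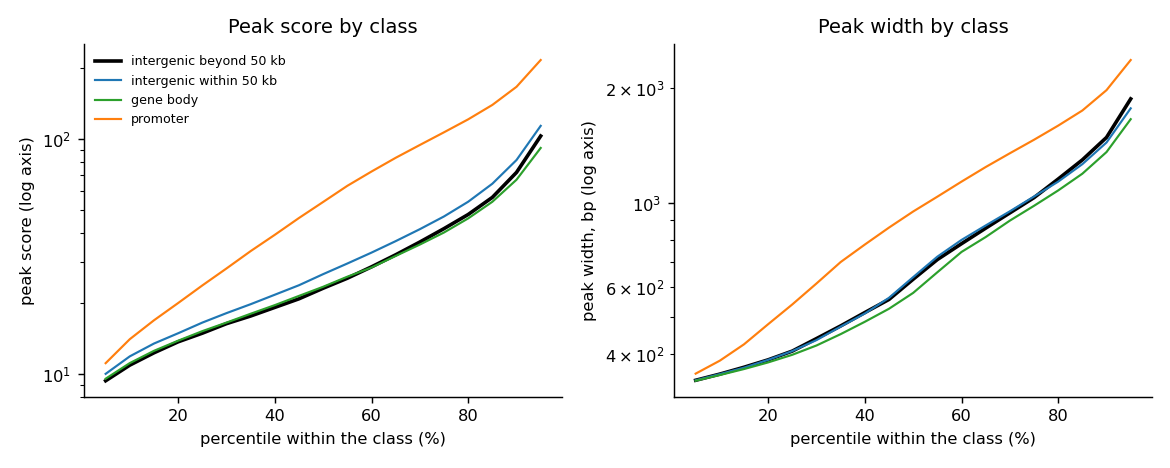
Peak score (left) and peak width in bp (right), both on log axes, at each percentile from 5 to 95 of the 4 classes of DHS; each line is a class, and the black line is the 3691 intergenic DHS beyond 50 kb. The black line runs with gene-body DHS in score and with nearer intergenic DHS in width, and promoter DHS lie above all of them.

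Members were thin on the ground. Sequenced DNA that could hold a member covered 865 Mb, or 36.1% of chromosomes 1 to 19, and held 4.27 members per Mb (exact Poisson interval 4.13 to 4.41). Intergenic DNA within 50 kb held 20.3 DHS per Mb (19.9 to 20.8), gene bodies 15.4 (15.1 to 15.6) and promoter windows 73.8 (72.8 to 74.8). The member density was 0.219 times (0.212 to 0.226) that of all DHS over all sequenced DNA. It fell steadily with distance. It was 10.4 per Mb (9.98 to 10.9) from 50 to 100 kb, where 1939 members lay. From 100 to 200 kb 1168 members gave 5.67 per Mb (5.35 to 6.01), and from 200 to 500 kb 527 members gave 1.94 per Mb (1.78 to 2.11). Between 500 kb and 1 Mb it was 0.363 per Mb (0.271 to 0.477), with 52 members. Beyond 1 Mb it was 0.0851 per Mb (0.0276 to 0.199), with 5 members. The density beyond 200 kb was 0.118 times (0.108 to 0.130) that from 50 to 100 kb. The median score was 24.25 (23.21 to 25.45) from 50 to 100 kb and 21.58 (20.47 to 23.20) from 100 to 200 kb, intervals that just fail to meet. It was 22.14 (20.45 to 24.33) from 200 to 500 kb, 20.7 (16.5 to 26.6) from 500 kb to 1 Mb and 18.6 (10.5 to 26.9) beyond 1 Mb, with intervals that overlap that of the first bin.

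**Figure D2:**
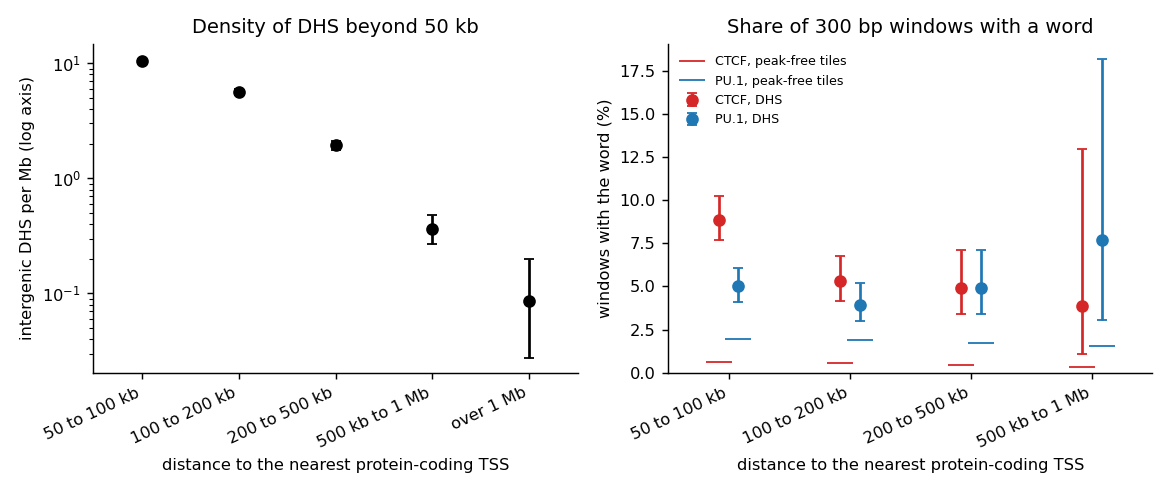
Left, members per Mb of sequence that could hold one (log axis) in 5 bins of distance to the nearest protein-coding TSS, with exact Poisson 95% intervals; right, percent of central 300 bp windows with a CTCF or PU.1 word in the first 4 bins, with Wilson 95% intervals, and the same percent in peak-free tiles as dashes. The density falls from 10.4 to 0.0851 per Mb, and the CTCF share is 8.87% in the first bin and 3.85% in the fourth, where the interval is 1.06 to 12.98%.

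At the limit itself, the members just inside lay 50.035 kb from Srsf5 (score 52.55), 50.058 kb from Arf2 (13.71) and 50.110 kb from Akr1d1 (25.82). The DHS just outside lay 49.999 kb from Mettl21d (10.34), 49.983 kb from Smndc1 (24.37) and 49.964 kb from Sik1 (15.56). The median distance of members was 95.6 kb, and 25% lay beyond 156 kb. The farthest, with a score of 26.86, lay 2130 kb downstream of Cntnap5b, and 44.2% of its 31-base words recurred elsewhere. Members with scores of 14.76 and 10.54 lay 1417 kb and 1254 kb upstream of Zeb2, a zinc finger repressor gene, in sequence with no recurring word. The other 2 of the 5 farthest lay side by side between Sel1l and Gm9726, 1036 kb from Gm9726 and 1035 kb from Sel1l, and 34.3% and 55.1% of their 31-base words recurred. The TSS of a gene of any type lay within 50 kb of 1027 members (27.8%).

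Members gathered near genes whose own promoter was open. The nearest protein-coding gene had a DHS in its promoter window for 2867 members (77.7%), while DNA nearest to such genes made up 39.7% of the sequence that could hold a member. The density was 8.34 per Mb (8.04 to 8.65) nearest to genes with a promoter DHS and 1.58 per Mb (1.47 to 1.69) nearest to genes without, a ratio of 5.28 (4.88 to 5.70). The ratio was 4.66 (4.18 to 5.19) from 50 to 100 kb and 5.26 (4.71 to 5.88) beyond 100 kb. Where the promoter DHS was at or above the median promoter score of 53.99, the density was 9.47 per Mb (9.09 to 9.85), against 5.11 (4.65 to 5.60) for weaker ones. Member scores hardly differed, with a median of 23.27 (22.61 to 24.09) near genes with a promoter DHS and 22.70 (20.98 to 23.94) near the rest. Members lay upstream of the nearest TSS in 54.0% of cases (52.4 to 55.6%) and peak-free tiles in 52.9%. The nearest gene is a label of position and was not shown to be the target.

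Members were also unevenly spread among the stretches between neighbouring protein-coding genes, here called deserts. Of 3277 deserts with sequence that could hold a member, 929 (28.3%) held any. A set of 146 deserts with 7.98% of that sequence held 50% of members, and 88 deserts with at least 10 each held 1375 members (37.3%). Both sets were picked by their own counts of members, which by itself gives some concentration. The shares to be had under an even spread are not given here. The 2348 deserts without a member summed to 595 Mb, and 148 of the 204 deserts with over 1000 kb of such sequence were among them. The longest empty stretches, named after their values were seen, lay between Celf4 and Pik3c3, Olfm4 and Pcdh17, 4930555F03Rik and Aga, Dsel and Cntnap5a, and Pcdh7 and G6pd2, each with at least 3594 kb.

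The fullest desert ran 571 kb from Eea1, which encodes an early endosome tether, to Btg1, on chr10:95508153-96079634. It held 40 members, or 77.7 per Mb (55.5 to 106), with scores from 7.35 to 316.68. The desert between Cd83, a gene of activated and mature B cells, and Jarid2, a Polycomb partner, held 36 members at 43.5 per Mb (30.4 to 60.2). The one between Irf2bp2, an IRF2 corepressor, and Tomm20, a mitochondrial import receptor, held 33 members in 252 kb, or 131 per Mb (90.0 to 184). This was 30.6 times the density of all members, the highest of the 10 fullest deserts.

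The desert between Gadd45g, a stress response gene, and Diras2 held 27 members at 46.9 per Mb (30.9 to 68.2). The desert between Ly86, which encodes the MD-1 partner of the B cell receptor RP105, and Rreb1 held 25 at 80.8 per Mb (52.3 to 119). The desert between Map3k1, a MAP kinase kinase kinase gene, and Ankrd55 also held 25, at 74.7 per Mb (48.3 to 110). The last 3 of the 10 held 24 each, and they lay between Cacna1e and Ier5, Id2 and Rnf144a, and Haao and Zfp36l2. All flanking genes of these fullest deserts had a DHS in a promoter window, with scores from 14.65 (Cacna1e) to 565.34 (Irf2bp2). Among the genes flanking the 5 empty deserts named above, Pik3c3 (53.60), Aga (107.18) and Dsel (49.97) had one, and the others had none in the list.

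**Figure D3:**
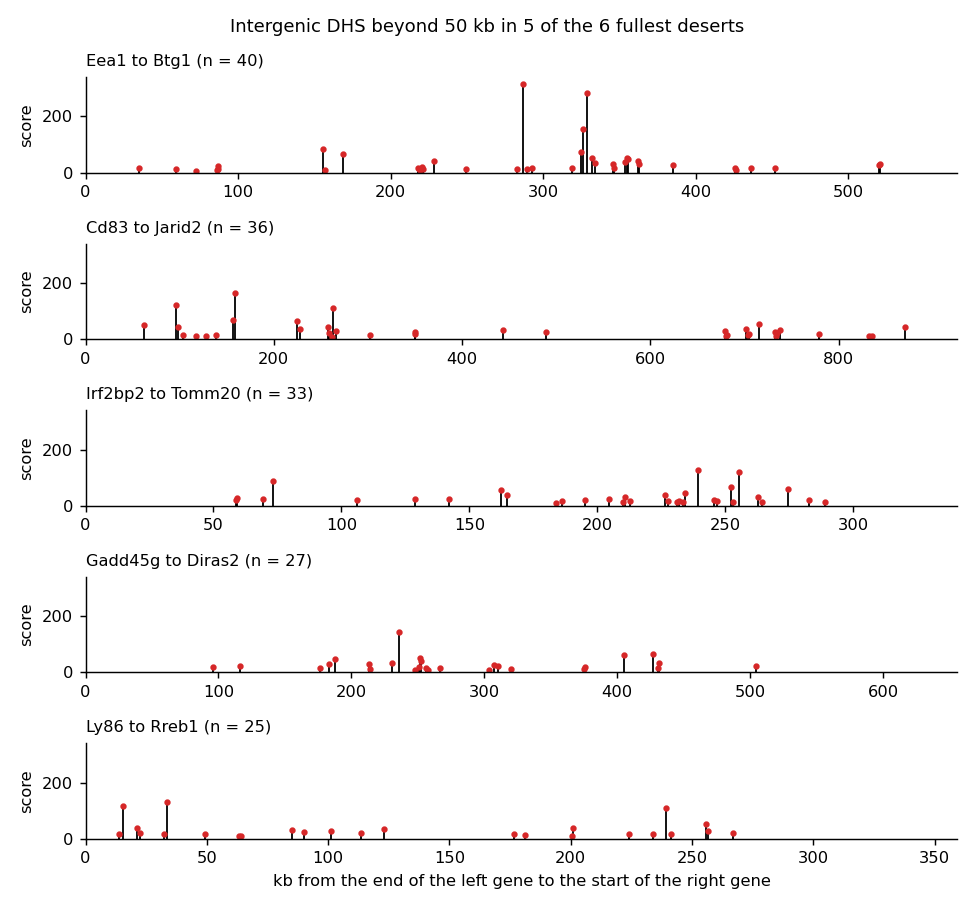
Each stem is a member, placed by its distance in kb from the gene on the left, with its score as height, in 5 of the 6 deserts with the most members; each panel spans the whole desert and n is its number of members. Clusters of weak members with a few strong ones recur, and the 2 tallest stems, at 316.68 and 282.13, stand between Eea1 and Btg1.

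Counted by nearest gene, Btg1 had the most members (31). Tomm20 had 24. Zfp36l1, which encodes a protein that speeds decay of AU-rich mRNAs, had 22. Cd83 had 21, Gadd45g 20 and Map3k1 19. Cxcr4, the receptor that holds B cells in CXCL12-rich niches, had 18 members from 70.9 to 241 kb away, with scores up to 92.81. Tgfbr2, a TGF-beta receptor gene, had 17, and so did Cited2 and Gm9034. Joining members less than 10 kb apart gave 2018 runs, of which 1182 were single members and 110 held 5 or more, with 720 members (19.5%) in them. The run with the most members held 17 over 63.1 kb, all nearest Tomm20. A run of 15 members over 69.9 kb lay between Klf13 and Trpm1, with a median score of 40.29 and a highest of 220.28. Runs of 14 lay near Gm9034 and Zfp36l1.

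Genes of B cell identity had many members. DNA nearest to 20 B cell regulators held 87 members in 3.497 Mb, or 24.9 per Mb (19.9 to 30.7), which was 5.83 times (4.72 to 7.21) the density of all members. Of the 20 genes 12 had sequence that could hold a member and 10 had at least 1. The interval counts the 87 members as independent, though they come from these 10 genes. All 20 had a promoter DHS, and the density near all genes with a promoter DHS was 8.34 per Mb. Bcl11a, a zinc finger gene needed for B cell development, had 16 members, from 93.4 to 259 kb away. Mef2c had 13 members, from 391 to 611 kb away. Ebf1, a founding factor of the lineage, had 12 from 150 to 412 kb away, with scores from 6.64 to 48.96. Foxo1 had 10 members, with a highest score of 142.71, Ets1 9 and Bcl6, the germinal centre repressor, 8 with a highest score of 162.43. Pax5 and Irf4 had none, in 31.1 kb and 14.7 kb of eligible sequence.

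The T cell and developmental lists differed from this. DNA nearest to 12 T cell regulators held 43 members in 3.32 Mb, or 12.96 per Mb (9.38 to 17.5), 3.04 times (2.25 to 4.10) the density of all members. Satb1, a chromatin organizer, and Id2, an inhibitor of E proteins, had 18 members each, Lef1 5 and Tox 2, and all 4 had promoter DHS here. Gata3 had no member in 1186 kb, though it too had a promoter DHS (score 96.04). Bcl11b had none in 127 kb and no promoter DHS. DNA nearest to 18 developmental regulators of other tissues held 0 members in 4.53 Mb, for which the upper Poisson bound is 0.814 per Mb. Only 5 of those 18 genes had a promoter DHS, against 20 of 20 and 9 of 12 in the other lists. The strongest of the 5 were at Sox4 (184.54) and Meis1 (74.73), which had no member in 161 kb and 382 kb. Whether promoter state accounts for the lack of members was not tested.

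Member sequence was richer in GC than peak-free DNA that could hold a member, and less so against its own flanks. The mean GC content of the central 300 bp was 47.3%, against 39.8% in 2867129 peak-free tiles of the same length from the same kind of DNA. Around the members themselves it was 47.5% within 100 bp of the centre and 44.5% at 500 to 1000 bp from it. The median of 47.0% (47.0 to 47.3%) was below the 54.3% of promoter DHS. CpG-rich windows, with GC of at least 55% and a CpG observed-to-expected ratio of at least 0.6, numbered 46 (1.25%), against 33.8% of promoter DHS and 0.138% of tiles. These 46 had a median score of 57.31. The strongest of them lay 74.1 kb from Slc1a3 (score 240.41), 55.6 kb upstream of Ezh2, a Polycomb methyltransferase gene (232.89), and 76.5 kb upstream of Chd2, a chromatin remodeller gene (225.14). The widest member, near St3gal1 (220.35), was next. Of all 46, 22 (47.8%) held the Sp/Klf word GGGCGG, against 6.39% of all members and 31.2% of promoter DHS, and the word itself adds to the GC and CpG content by which these windows were chosen.

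CTCF words stood out among the motifs. The CTCF word is a degenerate core of 14 bases with at most 1 mismatch, and it was present in the central 300 bp of 262 members, or 7.10% (6.31 to 7.97%), against 0.481% of tiles. The ratio was 14.8 (13.1 to 16.6), and 10.4 (9.23 to 11.7) with tiles weighted to the members' GC content. Nearer intergenic DHS held it more often, in 11.7%, a difference of -4.58 percentage points (-5.64 to -3.48). Among members the share was 8.87% from 50 to 100 kb and 5.14% beyond, 3.73 points lower (2.09 to 5.38).

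Words of B cell factors were less enriched. The PU.1 word GAGGAAGT was in 173 members, or 4.69% (4.05 to 5.42%), against 1.75% of tiles, a ratio of 2.68 (2.32 to 3.10), or 2.11 (1.83 to 2.45) weighted by GC. Its share was 0.852 points (0.0830 to 1.68) above that of nearer intergenic DHS and did not differ beyond its interval with distance (0.665 points, -0.714 to 2.03). The Ets-IRF composite word GGAANTGAA was in 3.96% of members, with a GC-weighted ratio of 1.64 (1.40 to 1.92). The Runx word AACCACA was in 8.67%, with a weighted ratio of 1.5 (1.35 to 1.67). Words per Mb within 100 bp of the centre were also set against those at 500 to 1000 bp from it. This ratio was 2.13 (1.73 to 2.62) for PU.1 and 1.197 (1.04 to 1.38) for Runx. For the Ets-IRF composite it was 1.06 (0.856 to 1.31), an interval that spans 1. An excess of the composite word over the members' own flanks was therefore not shown. MEF2 words were rare (0.840%), and their ratio depended on the weighting, at 1.19 (0.836 to 1.69) unweighted, an interval that spans 1, and 2.58 (1.82 to 3.67) weighted.

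Some ratios came down or crossed 1 with the GC of the tiles. The EBF word CCCNNGGGA had a ratio of 2.79 unweighted and 1.31 (1.15 to 1.49) weighted, and the E-box CAGCTG 1.997 and 1.22 (1.14 to 1.31). NF-kB words went from 2.43 to 1.30 (1.12 to 1.503) and the Sp/Klf word from 3.79 to 1.41 (1.25 to 1.60). The Ets word CCGGAAGT, in 22 members, went from 5.08 to 2.70 (1.77 to 4.10). The octamer ATGCAAAT went the other way, from 0.763 to 1.10 (0.898 to 1.35), as did the STAT word TTCNNNGAA, from 0.813 to 1.07 (0.971 to 1.18), and the GATA word AGATAAG, from 0.872 to 1.06 (0.907 to 1.24). The AP-1 word TGANTCA had 1.15 and 1.25 (1.14 to 1.38). Paired p53 half-sites were in 9 members (0.244%), a ratio of 1.08 (0.563 to 2.08) unweighted and 0.790 (0.411 to 1.52) weighted, both with intervals that span 1. At least 1 of the 15 words was in 59.2% of members and 44.5% of tiles. A match is a description of letters and not evidence that a factor was bound.

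**Figure D4:**
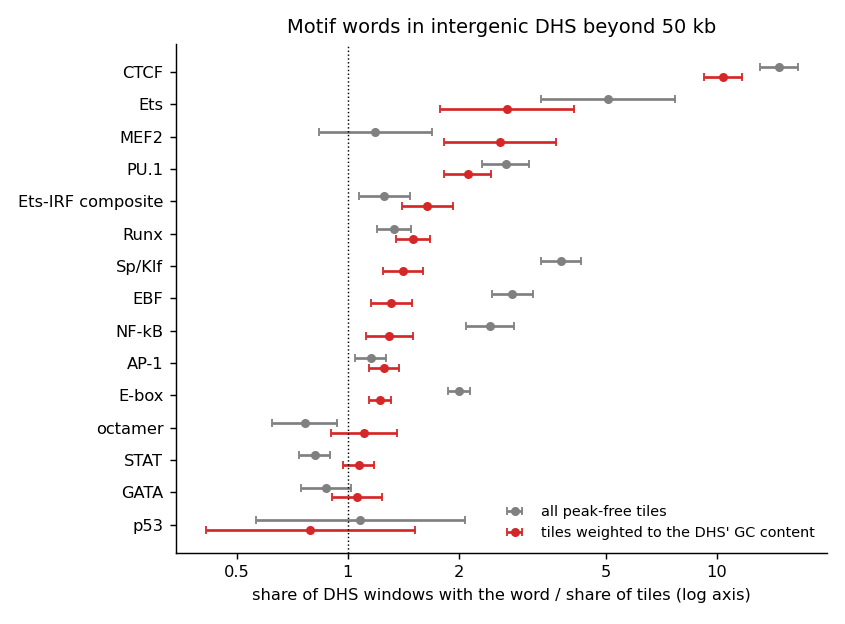
Ratio of the share of the 3691 members with each of 15 words in the central 300 bp to the share of peak-free tiles (log axis, dotted line at 1), against all tiles in grey and against tiles weighted to the members' GC content in red, with 95% intervals of counting error. CTCF stands far to the right of the rest at 14.8 and 10.4, and the octamer, STAT and GATA words move from below 1 to above it.

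Where the words lay depended on the width of the DHS. CTCF words were frequent at the centre of members and again 200 to 250 bp to either side. In the 1004 members from 700 to under 1200 bp wide, 183 words lay under 100 bp from the centre. In the 862 members under 400 bp wide only 3 did, while 221 lay 150 to 349 bp from it. Of those 862 narrow members 200 (23.2%, 20.5 to 26.1%) had a CTCF word just outside their edge, at a median of 41 bp beyond it. For 73 of the 200 the next DHS began within 100 bp on the other side of the word, so that neighbouring members can share a word. Whether reads were shifted or extended before peaks were called is not given in the sources used here. Edges, centres and the shares of words in the central 300 bp all depend on that step. PU.1 words also lay outside narrow members, with a word up to 100 bp beyond the edge in 73 narrow members (8.47%, 6.79 to 10.5%) at a median of 56 bp. The line below shows an example, chosen after the values were seen, 77.6 kb from Gm14444, with the CTCF word in capitals. It lies in the 89 bp gap between DHS of 387 bp (score 52.80) and 462 bp (score 51.90), and 10 bases of each are included.
Gap between neighbouring DHS, chr2:174758337-174758445, plus strand: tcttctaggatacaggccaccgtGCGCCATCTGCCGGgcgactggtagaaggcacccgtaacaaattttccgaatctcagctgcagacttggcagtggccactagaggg

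With a window of 600 bp, a setting chosen after this was seen, 585 members (15.8%, 14.7 to 17.1%) held a CTCF word and 385 (10.4%, 9.49 to 11.5%) a PU.1 word. The tiles of 600 bp held them in 0.981% and 3.51%, so the ratios were 16.2 (14.98 to 17.4) and 2.97 (2.70 to 3.27). Nearer intergenic DHS again held CTCF words more often (25.4%, a difference of -9.56 points, -11.0 to -8.04). Of all members, 417 (11.3%) lay less than 100 bp from another DHS, and the smallest gap was 52 bp.

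**Figure D5:**
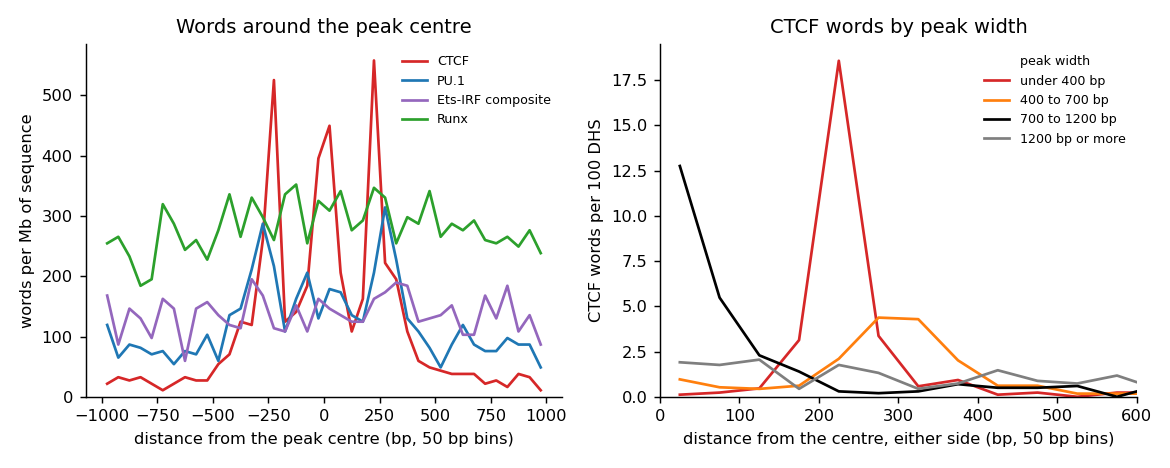
Left, words per Mb of sequence in 50 bp bins of distance from the centre of the members for CTCF, PU.1, Ets-IRF composite and Runx words; right, CTCF words per 100 members by distance on either side of the centre for 4 classes of peak width. CTCF words peak at the centre in members from 700 to under 1200 bp wide and at 200 to 250 bp in members under 400 bp wide, outside their edges.

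Members with a CTCF word were more isolated than those without. In the central 300 bp they were also stronger. Their median score was 33.2 (31.03 to 35.8), against 22.56 (21.58 to 23.20) without the word, and their median width 901 bp (849 to 934) against 581 bp (561 to 606). Another DHS lay within 10 kb of 48.5% (42.5 to 54.5%) of members with the word and of 71.8% (70.3 to 73.3%) without, a difference of -23.3 points (-29.5 to -17.1). With the 600 bp window, which takes in the words beside narrow members, the scores were closer, at 24.9 (23.3 to 27.2) with the word and 22.7 (21.8 to 23.5) without. The difference in neighbours was -20.6 points (-24.9 to -16.3) with that window and -13.0 points (-18.7 to -7.14) after DHS under 500 bp apart were merged. It was -17.2 points (-20.4 to -14.1) in nearer intergenic DHS, so it was not particular to members. PU.1 showed no such difference, at 0.395 points (-6.94 to 6.87). The median score of members with a PU.1 word was 34.7 (28.2 to 38.0) in the 300 bp window and 27.0 (23.4 to 29.8) in the 600 bp window, against 22.81 without it in either.

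The words also followed the score. Of the 923 members with the highest scores, from 41.57, 10.1% held a CTCF word and 6.72% a PU.1 word in the central 300 bp, against 2.82% and 3.25% of the 923 with the lowest. The differences were 7.26 points (5.07 to 9.55) and 3.47 points (1.49 to 5.51). Width moved with score, from a median of 406 bp in the lowest of 4 such groups to 1231 bp in the highest, so the offset of words in narrow members bears on these shares. With the 600 bp window the CTCF share was 9.43% in the lowest group, 19.4% and 18.1% in the middle groups and 16.5% in the highest. The PU.1 share in that window was 8.99% in the lowest group and 11.8% in the highest, a difference of 2.82 points (0.0267 to 5.62). In the 300 bp window the highest group exceeded the lowest by 4.66 points (1.19 to 8.12) for E-box words and by 4.33 points (2.10 to 6.63) for Sp/Klf words. For the Ets-IRF composite, NF-kB, AP-1, Runx, octamer and EBF words the interval of this difference spanned 0 (1.08, 1.41, -0.542, -0.975, -0.325 and -0.867 points).

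Members had fewer DHS close by than other classes. The rule itself keeps any DHS over a protein-coding TSS from lying within 10 kb of a member, while other classes can have such neighbours. How much of the differences below comes from the rule was not tested. Another DHS lay within 10 kb of 2589 members, or 70.1% (68.6 to 71.6%), against 78.5% of nearer intergenic DHS (a difference of -8.38 points, -10.1 to -6.67) and 80.7% of promoter DHS. Within 2 kb it was 46.5% (44.9 to 48.1%) and within 50 kb 90.7% (89.7 to 91.6%). The share fell from 72.1% (70.1 to 74.1%) at 50 to 100 kb to 48.1% (35.1 to 61.3%) between 500 kb and 1 Mb.

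Chromosomes differed in how densely members lay. Chromosome 19 had 7.79 members per Mb (6.44 to 9.34), chromosome 10 had 7.56 (6.80 to 8.38) and chromosome 13 had 6.59 (5.87 to 7.37). Chromosome 4 was lowest with 2.62 (2.19 to 3.10), followed by chromosome 14 with 2.88 (2.42 to 3.41), and the intervals of these last 2 overlap. The median over the 19 autosomes was 3.94 per Mb. All DHS together numbered 31.2 per sequenced Mb on chromosome 19, 21.5 on chromosome 10 and 17.6 on chromosome 13, against 19.5 over the autosomes. Chromosome 4 had 19.4 of them per Mb and chromosome 14 had 13.9. Member density and the density of all DHS had a Spearman's rho of 0.43 over the 19 autosomes. The fullest desert, between Eea1 and Btg1, held 40 of the 364 members of chromosome 10. Recurring 31-base words made up over 10% of the sequence in 302 members (8.18%), against 12.2% of nearer intergenic DHS, 6.88% of gene-body DHS, 8.07% of promoter DHS and 8.49% of all DHS on chromosomes 1 to 19. There were 9 members within 5 kb of an assembly gap.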

How the data were processed

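The DNaseI-seq data are of 1 library. The submitters' processing notes name BWA 0.6.2, SAMtools and mm9. The deposited peak list holds, per DHS, its position and a score in the fifth column. Peak names in the file carry the name of the caller MACS. The study's methods give a MACS version, a p-value limit and read masking for other data types of the study, and not for the DNaseI library. For this list the score's scale, the caller's version, the filters and any shifting or extension of reads are not given in the sources used here, so scores are read as ranks of strength within the list. Merging by a caller, read shifting, read length and mappability can move edges and scores.

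Positions were compared with GENCODE M1 on the same assembly (NCBIM37). Distances run from the peak centre. Density was members per Mb of sequenced eligible DNA. Words were searched on both strands in the central 300 bp and in all peak-free eligible tiles of 300 bp, and tiles were weighted in GC bins of 2 percentage points. Intervals (95%) are Wilson, exact Poisson, Newcombe, log-scale ratio and distribution-free median intervals. Scripts used Python 3.11.15, numpy 2.4.6, pandas 2.3.3 and scipy 1.17.1 and were tested on simulated data. Named were the 10 strongest, 5 widest and 5 farthest members, 10 fullest deserts, 5 strongest CpG-rich members and up to 6 genes per list. Other genes with many members or runs, and listed genes without a member, were named after their values were seen. Spi1 is listed as Sfpi1. The members and lists were chosen with earlier results of these data known. Some results under these rules are not reported here.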

Additional observations from a re-analysis of the deposited data

Results flagged for a closer look

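On chromosome X, which the rule leaves out, 44 of 864 DHS met the same position rule, or 0.629 per Mb (exact Poisson interval 0.457 to 0.845) of 69.9 Mb, with scores from 8.06 to 75.08. This was drawn out because it is signal in DHS that no comparison above used. The density was 0.147 times (0.110 to 0.199) that of the autosomes. The density of all 864 DHS of chromosome X was not set against that of the autosomes. The low value is therefore not shown to be particular to DHS that meet the rule.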

How the results depend on the processing

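Of 74 recomputed values 39 stayed within the main interval or, for the count of members, within 1.5 times, 35 moved and 0 changed side. With only DHS at or above the median score there were 1269 members, a density ratio of 0.151, a median score of 52.17 and width of 1123 bp, a neighbour within 10 kb for 44.9%, CTCF and PU.1 word ratios of 22.3 and 4.05, and a far to near ratio of 0.101. After merging DHS under 500 bp apart these were 0.231 (density ratio), 25.48 (median score), 863 bp (median width), 56.9% (neighbour), 21.1 (CTCF) and 3.41 (PU.1). With a limit of 100 kb there were 1752 members, with a density ratio of 0.132, median score 21.60, median GC 46.3%, neighbour share 68.0%, CTCF ratio 11.6, far to near ratio 0.217 (against 100 to 200 kb) and B cell regulator ratio 8.29. With distance to the TSS of any gene the density ratio was 0.199 and the far to near ratio 0.175. Without DHS with over 10% recurring words the neighbour share was 68.2%. With all assembly bases as territory the density ratio was 0.209. Gaps under 2 kb and 50 kb gave neighbour shares of 46.5% and 90.7% by construction. The CTCF ratio was 18.9 in windows of 200 bp, 10.4 with tiles weighted by GC, 92.3 without a mismatch and 1.69 with the word's letters in reverse order, where 3 members had it. The PU.1 ratio was 2.11 weighted by GC and 1.05 reversed. Beyond 500 kb the far to near ratio was 0.0270. The smaller counts under a higher score or limit follow from the stricter rule, and the cause of the other shifts was not tested. No paired analysis was possible because there is 1 library. Read totals are unknown, so depth cannot be weighed.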
